A study of Sus scrofa with 9 samples.

Results

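Interleukins and their receptors were followed in the spleen of Ningxiang pigs, a Chinese indigenous breed, at postnatal days 30, 90 and 210. The members were all loci whose protein description names an interleukin with its number (ligand, receptor subunit, receptor-associated kinase, adapter, decoy or binding protein) or a cytokine receptor common subunit. They came to 73 of the 28095 loci in the gene table. Of these, 42 had a mean of at least 1 FPKM (fragments per kilobase of transcript, scaled by library size) over the 9 libraries and were tested, among 19264 tested loci in all. RNA was sequenced from whole spleen, with 3 libraries at each age; all groups are of the same breed and tissue, and no treatment or genotype is labelled. The sample names alone mark the libraries of an age as replicates and do not say that each is a different animal, so the p-values describe the variation among these libraries, which may be technical. The sex of the pigs is not given.

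Interleukins are small secreted proteins by which white blood cells and stromal cells signal to each other. Most act through receptors assembled from a ligand-specific chain and a chain shared within a family, such as IL2RG, IL6ST or CSF2RB, which pass the signal on through JAK kinases and STAT factors. The receptors of the IL1 family instead use an intracellular domain shared with the Toll-like receptors, with IRAK kinases downstream. The spleen holds lymphocyte follicles, a red pulp rich in macrophages that clear blood cells, and a stroma of endothelial and fibroblast-like cells, so that a bulk library mixes producers and responders. In such samples fewer cells of a type and less RNA per cell cannot be told apart.

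Counted reads per library were 48.9 to 62.1 M. Markers of red pulp macrophages (6 of 7 symbols matched) summed to 372 to 742 FPKM and those of B cells (6 of 7 matched) to 66.8 to 126 FPKM, while 4 adipocyte markers summed to 0.704 to 3.3 FPKM. The median FPKM of the tested loci was 2.33 and 2.44 in day 90 replicates 3 and 2 and 2.79 to 3.23 in the other libraries. The fits rescale the libraries, and the deposited FPKM are given here as they stand. A difference read from FPKM and a fitted change can therefore differ in size and also in sign. IL10RA, for example, averaged 15.7 FPKM at day 90 and 16.3 at day 30, with a fitted log2 change of 0.13.

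By FPKM, which divide reads by transcript length, receptor loci had higher levels than ligand loci. Of 38 receptor loci 24 (63.2%) reached 1 FPKM, against 13 of 27 ligand loci (48.1%), 1 of 4 inhibitor loci and all 4 loci of intracellular signalling proteins. The median level was 2.45 FPKM over all receptor loci, 0.535 FPKM over all ligand loci, 2.67 FPKM over the 4 signalling loci and 0.583 FPKM over the 4 inhibitor loci, beside 1.47 FPKM over all 73 members and 1.81 FPKM over all loci in the table. Among the 73 members, 57.5% passed the minimum of 1 FPKM, beside 68.6% of all loci.

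**Figure D1:**
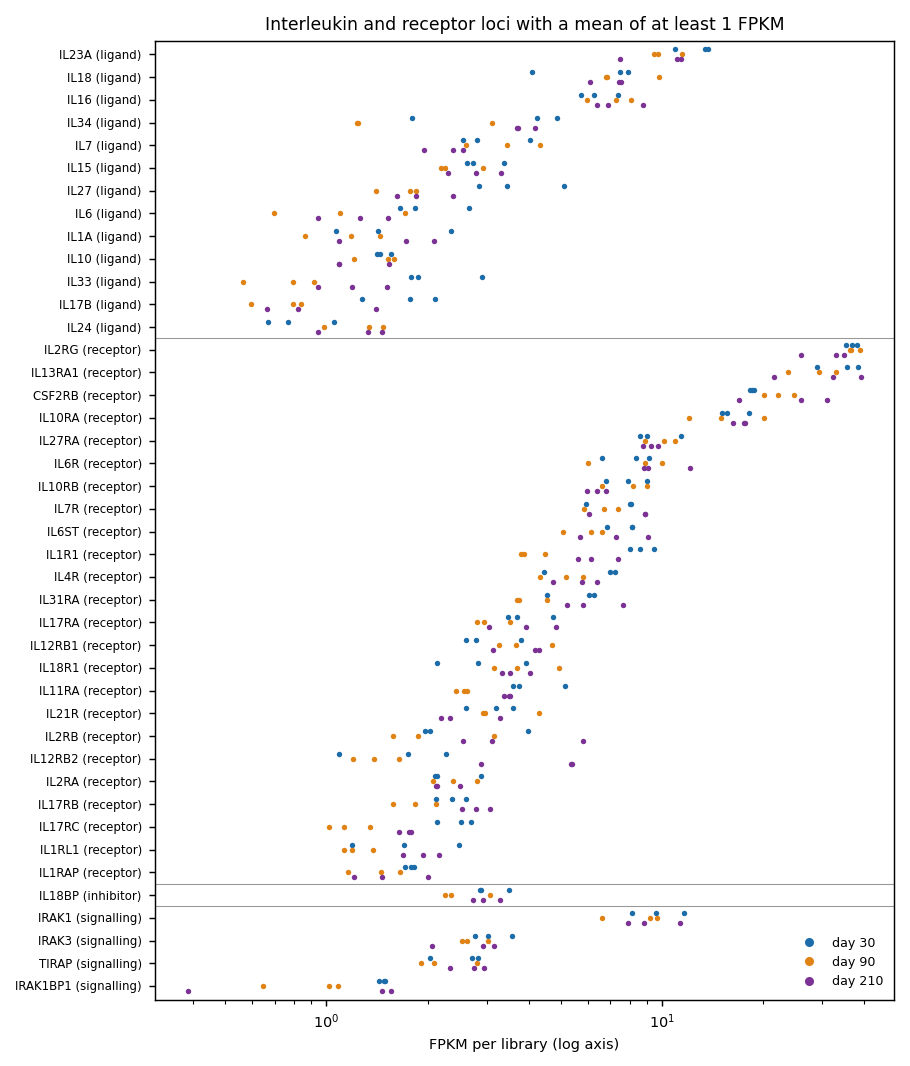
FPKM of the 42 tested members in each of the 9 libraries (points, coloured by age; log axis), grouped into ligands, receptors, an inhibitor and signalling proteins and ordered by mean level within each group. IL2RG and IL13RA1 have the highest means, with 21.5 to 39.1 FPKM over the libraries, and most ligands lie below 5 FPKM.

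The highest level belonged to IL2RG, the common gamma chain shared by the receptors for IL2, IL4, IL7, IL9, IL15 and IL21, with a mean of 35.1 FPKM over the 9 libraries. IL13RA1, a receptor chain for IL13 that also pairs with the IL4 receptor, followed with 31.3 FPKM, and CSF2RB, the beta chain shared by the receptors for IL3, IL5 and GM-CSF, with 21.9 FPKM. IL10RA, the ligand-binding chain of the receptor for the anti-inflammatory cytokine IL10, averaged 16.4 FPKM. IL10RA held 157017 reads and IL2RG 38138, so the order on FPKM is not that of reads. On the other strand the locus of neuroligin-3, with 75568 reads, overlaps that of IL2RG over 597 bases. Reads of this shared stretch cannot be told apart, as the strand used in counting is not given. The spread of IL13RA1 was wide, with 29.0 to 38.3 FPKM at day 30, 23.7 to 33.1 at day 90 and 21.5 to 39.1 at day 210, so its place behind IL2RG was not kept in every library. The next receptors lay close together at 9.61 FPKM for IL27RA, 8.78 for IL6R, 7.42 for IL10RB, 7.32 for IL7R and 7.0 for IL6ST, and their ranges over libraries overlapped. IRAK1, a kinase that carries the signal of IL1 family and Toll-like receptors, averaged 9.21 FPKM.

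Among ligands IL23A, which with IL12B forms the cytokine IL23, was listed highest at 11 FPKM. Its locus overlaps that of STAT2 on the other strand by 1029 bases, and STAT2 averaged 48.1 FPKM; the strand used in counting is not given in the sources used here, so reads of the pair cannot be told apart. IL18, an inflammasome-processed cytokine that induces interferon gamma, followed at 7.12 FPKM and IL16, a chemoattractant for CD4+ cells, at 6.98 FPKM. The other 10 tested ligands averaged 1.11 to 3.12 FPKM. In several pairs of ligand and receptor the receptor chain had the higher mean, with IL27RA at 9.61 FPKM beside IL27 at 2.47, IL7R at 7.32 beside IL7 at 2.96, IL10RA at 16.4 beside IL10 at 1.39, IL6R at 8.78 beside IL6 at 1.49, and IL1R1 at 6.38 beside IL1A at 1.47. Some pairs stood the other way round, among them IL18 at 7.12 FPKM beside IL18R1 at 3.51. Others were IL23A as listed (11 FPKM beside IL23R at 0.249) and the sparse IL5 (0.454 FPKM beside IL5RA at 0.129). FPKM divide reads by transcript length, and IL7 held more reads (58695) than IL7R (6777). IL27RA, IL10RA, IL6R and IL1R1 held more reads than the ligands named beside them.

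Between days 90 and 30 a small number of members differed, each lower at the later age. The receptor chains IL1R1 and IL17RC and the ligand IL33 fell, which is 3 of 42 members called at an adjusted p under 0.05 (edgeR quasi-likelihood test, Benjamini-Hochberg over all loci tested), while 6.08% of all tested loci were called in this comparison, 4.02% were called lower and 2.06% higher. Between days 210 and 30 the receptor chain IL12RB2 rose, which is 1 of 42 members, beside 6.24% of all tested loci called, 2.55% higher and 3.7% lower. Between days 210 and 90 edgeR called 0 of 42 members, beside 0.535% of all loci (0.348% higher, 0.187% lower); 8 members had an unadjusted p under 0.05, DESeq2 called 4 members (IL12RB2, IL17RB, IL1R1 and IL7; 4.17% of all loci) and limma on log2(FPKM + 1) called 1 (IL12RB2; 0.633%). Without any 1 of the day 90 libraries IL1R1 was the 1 member called at day 90 against day 30, and in a fit of days 210 and 30 alone edgeR called 0 members, beside 2.59% of all loci, with 7 members (19.6% of all loci) at an unadjusted p under 0.05. In fits of all ages DESeq2 called 3 members (12% of all loci) and limma 2 (4.81%) at day 210 against day 30, and each called 5 members at day 90 against day 30 (12.6% of all loci with DESeq2, 8.93% with limma). Over all 3 ages together 3 members were called (IL1R1, IL17RC and IL12RB2), beside 7.64% of all loci, while DESeq2 called 7 (17.3% of all loci) and limma 5 (8.39%).

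With edgeR the shares of members called, both directions together, were near or below those of all loci. At day 210 against day 90 the members' share was higher with DESeq2 (4 of 42, beside 4.17% of all loci) and limma (1 of 42, beside 0.633%). With limma it was also higher at day 90 against day 30 (5 of 42, beside 8.93%) and over all 3 ages (5 of 42, beside 8.39%). The sizes of the members' changes in edgeR were close to those of all loci. The median log2 change was -0.06 at day 90 against day 30, 0.02 at day 210 against day 90 and -0.01 at day 210 against day 30, with 0.00 over all tested loci in each comparison. The median size of a change, without its sign, was 0.25, 0.21 and 0.20 for the members in that order of comparisons and 0.23, 0.18 and 0.24 for all loci. At day 90 against day 30, 10 members had an unadjusted p under 0.05, where 23.1% of all loci did. The count was 8 members at day 210 against day 90 (14.1% of all loci) and 10 members at day 210 against day 30 (23.7%).

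**Figure D2:**
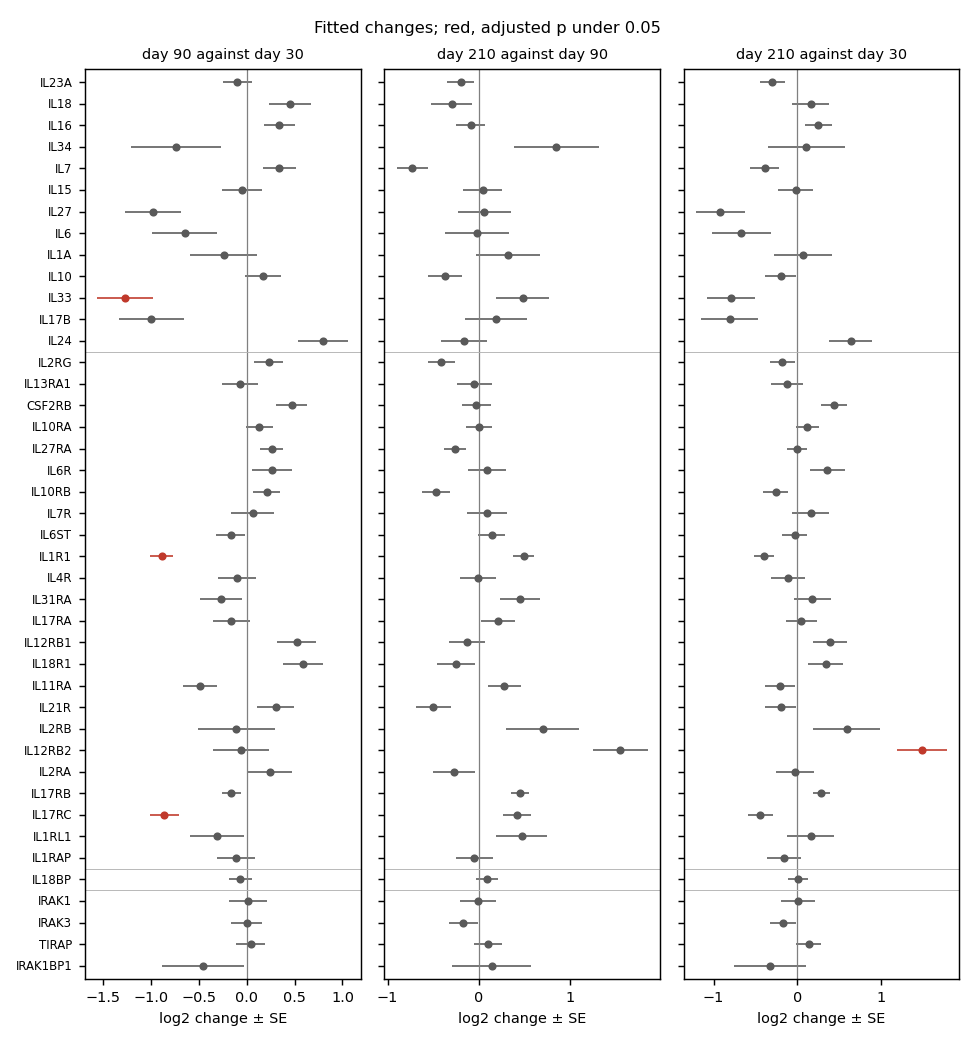
Fitted log2 changes with their standard errors for the 42 tested members in the 3 comparisons of ages, in the order of the plot of levels; positive values are higher at the later age. Red marks IL33, IL1R1 and IL17RC (day 90 against day 30) and IL12RB2 (day 210 against day 30), the members with an adjusted p under 0.05.

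The 13 tested ligands spanned log2 changes of -1.27 to 0.80 at day 90 against day 30. IL33, an alarmin kept in the nucleus of stromal and endothelial cells and released on damage, had 0.564, 0.794 and 0.918 FPKM at day 90, against 1.87, 1.78 and 2.91 FPKM at day 30. Every day 90 library lay below every day 30 library. The change was -1.27 ± 0.29 (log2, SE; adjusted p = 0.0385). At day 210 IL33 had 1.19, 1.51 and 0.944 FPKM, above the day 90 and below the day 30 libraries, with a change of 0.48 ± 0.29 against day 90 (adjusted p = 0.523) and of -0.79 ± 0.29 against day 30 (adjusted p = 0.142). IL33 held 5175 reads over the 9 libraries. The call at day 90 was lost in 7 of 9 fits that left out 1 library, with an adjusted p of up to 0.0946 (without day 90 replicate 2). The IL33 locus, on chromosome 1 from 38138111 to 38209454 in the deposited coordinates, is overlapped over 3543 bases by an unnamed locus with no strand, whose change was -0.93 at day 90 against day 30 (adjusted p = 0.0337).

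IL27, the p28 chain of a cytokine made by antigen-presenting cells, had 1.77, 1.85 and 1.40 FPKM at day 90 and 1.62, 2.39 and 1.85 FPKM at day 210, against 5.11, 3.44 and 2.84 FPKM at day 30. Both later ages lay wholly below day 30 and overlapped each other. The changes of -0.98 ± 0.29 at day 90 (adjusted p = 0.0807) and -0.92 ± 0.29 at day 210 (adjusted p = 0.0981), both against day 30, missed the threshold in edgeR, while DESeq2 and limma called both. Dendritic cell markers (5 of 6 symbols matched, none at 0 in every library) summed to 18.4 to 31.2 FPKM at day 90 and 17.5 to 21.1 at day 210, against 35 to 52.9 at day 30, and their part in the IL27 values was not tested. The list did not move as one: at day 90 against day 30 XCR1 (-1.30, adjusted p = 0.0353) was called lower and CD1A (1.35, adjusted p = 0.0128) higher, and at day 210 against day 30 XCR1, FLT3 and ZBTB46 were called lower. With 1 library left out, the day 90 calls held in 4 of 9 fits for XCR1 (adjusted p up to 0.114, without day 90 replicate 2) and in 8 of 9 for CD1A, and the day 210 calls in 8 of 9 for XCR1, 9 of 9 for FLT3 and 2 of 9 for ZBTB46 (up to 0.118, without day 30 replicate 2).

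IL17B, a ligand of IL17RB, had 0.842, 0.795 and 0.595 FPKM at day 90, against 1.77, 2.11 and 1.28 FPKM at day 30, again without overlap. Its change was -1.0 ± 0.34 (adjusted p = 0.116). IL24, a member of the IL10 family, had 1.47, 1.34 and 0.986 FPKM at day 90, against 0.669, 1.05 and 0.767 FPKM at day 30. Its change of 0.80 ± 0.26 (adjusted p = 0.0982, called by DESeq2 only) was the highest among the ligands in this comparison. The locus of IL24 overlaps, on the other strand, that of fas apoptotic inhibitory molecule 3 over 2189 bases, which averaged 24 FPKM and changed by 0.62 (adjusted p = 0.0305), so the reads of the pair cannot be told apart.

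IL7, the stromal factor that keeps lymphocytes alive, had 2.38, 2.55 and 1.95 FPKM at day 210, against 4.34, 3.45 and 2.61 FPKM at day 90. The ages did not overlap, by a narrow margin, and the change was -0.73 ± 0.17 (adjusted p = 0.0948; called by DESeq2 only). Day 30 had 2.55, 2.80 and 4.05 FPKM and overlapped both later ages. An unnamed locus on the same strand that overlaps IL7 over 7275 bases changed by -0.92 at day 210 against day 90 (adjusted p = 0.0415). On the other strand the locus of heterogeneous nuclear ribonucleoprotein K overlaps IL7 over 50738 bases. That locus held 19238 reads, against 58695 for IL7, and changed by -1.57 in the same comparison (adjusted p = 0.301). Reads of these loci cannot be told apart. IL34, a ligand of the macrophage receptor CSF1R, had 4.17, 3.69 and 3.71 FPKM at day 210, against 1.24, 3.12 and 1.23 FPKM at day 90. Its change of 0.85 ± 0.47 (adjusted p = 0.467) missed the threshold, and day 30 alone spanned 1.80 to 4.85 FPKM.

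IL6, an acute-phase cytokine, had 1.26, 0.942 and 1.53 FPKM at day 210, against 1.83, 2.65 and 1.66 FPKM at day 30, with a change of -0.67 ± 0.35 (adjusted p = 0.28). IL10, the anti-inflammatory cytokine, averaged 1.47 ± 0.0800 FPKM at day 30, 1.45 ± 0.205 at day 90 and 1.24 ± 0.257 at day 210 (SD, n = 3 each). IL15, which sustains NK and memory T cells, averaged 2.92 ± 0.412, 2.45 ± 0.402 and 2.80 ± 0.506 FPKM at days 30, 90 and 210 (SD, n = 3 each). IL16, IL18, IL1A and IL23A also overlapped between ages, with adjusted p of 0.241 or more in every comparison.

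**Figure D3:**
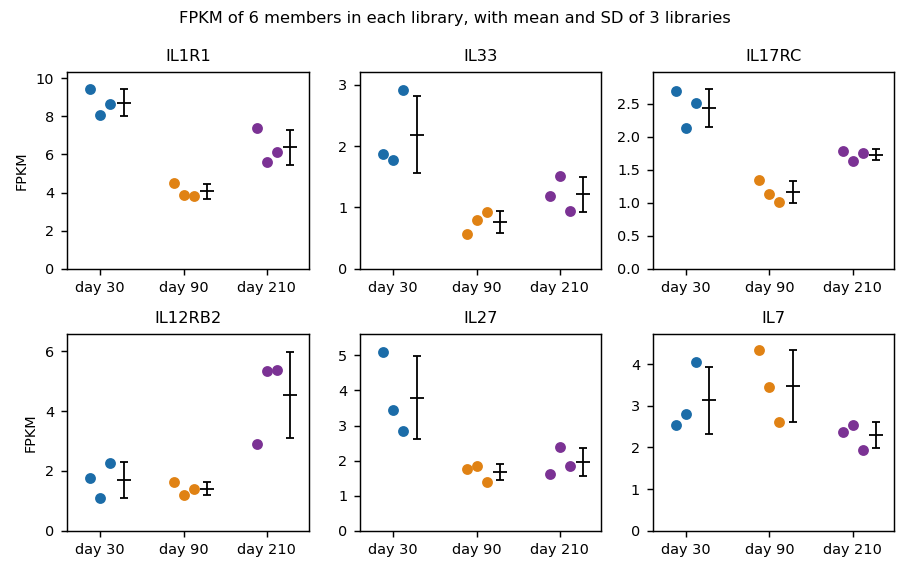
FPKM of 6 members in each library by age (points), with the mean and SD of the 3 libraries beside them. By their means IL1R1, IL33 and IL17RC are lowest at day 90, IL27 is highest at day 30, IL12RB2 is highest at day 210 and IL7 is lowest at day 210.

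Among receptors the lowest adjusted p belonged to IL1R1, the signalling receptor for IL1A and IL1B. It had 4.49, 3.88 and 3.81 FPKM at day 90, against 9.45, 8.04 and 8.62 FPKM at day 30. The day 90 libraries lay close together and far below day 30, and the fitted level was 0.538 times that at day 30, a log2 change of -0.89 ± 0.12 (adjusted p = 0.00852). The call held in all 9 fits that left out 1 library, with adjusted p up to 0.0402 (without day 90 replicate 1). At day 210 IL1R1 had 7.38, 5.60 and 6.14 FPKM, between the other ages and overlapping neither of them. The change was 0.49 ± 0.12 against day 90 (adjusted p = 0.12) and -0.40 ± 0.12 against day 30 (adjusted p = 0.0857), both called by DESeq2 only. The locus lies on chromosome 3 from 75167347 to 75262272 on the minus strand, and no other locus overlaps it.

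IL17RC, which pairs with IL17RA in the receptor for IL17A and IL17F on stromal and epithelial cells, followed the same order of ages. It had 1.35, 1.13 and 1.02 FPKM at day 90, against 2.69, 2.13 and 2.51 FPKM at day 30, with day 210 between at 1.79, 1.64 and 1.76 FPKM. The 3 ages did not overlap. The change was -0.86 ± 0.15 at day 90 against day 30 (adjusted p = 0.0163), and the call was lost without day 30 replicate 1 and without each of the day 90 libraries in turn (adjusted p up to 0.0686). Its partner IL17RA, with 3.53, 2.94 and 2.80 FPKM at day 90, against 4.73, 3.47 and 3.70 FPKM at day 30, had a change of -0.16 ± 0.19 (adjusted p = 0.667).

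IL1R1, IL17RC and IL33 were all lowest at day 90, and markers of stromal cells were also lower then. Fibroblast markers (4 of 6 symbols matched: COL1A1, COL5A2, PDGFRA and DCN) summed to 41.5 to 59.8 FPKM at day 90, against 118 to 158 FPKM at day 30, and 2 of 4 (COL1A1 and COL5A2) were called lower, COL1A1 in 3 of 9 fits with 1 library left out (adjusted p up to 0.143, without day 90 replicate 1). Endothelial markers (4 of 6 matched: PECAM1, TEK, FLT1 and CLEC14A) summed to 20.4 to 24.4 FPKM at day 90, against 40.2 to 42.7 FPKM at day 30, and 3 of 4 were called lower. Of all loci edgeR called 4.02% lower in this comparison. DESeq2 (12.6% of all loci called) and limma (8.93%) each called 4 of 4 fibroblast and 3 of 4 endothelial markers. At day 210 the sums were 39.5 to 78.6 FPKM for fibroblast and 20.2 to 28 FPKM for endothelial markers, which overlaps day 90. None of these 8 markers was at 0 in every library, and their part in the levels of IL1R1, IL17RC and IL33 was not tested. IL11RA, the receptor for the stromal cytokine IL11, had 2.57, 2.63 and 2.43 FPKM at day 90, against 3.60, 3.75 and 5.13 FPKM at day 30, and its change of -0.49 ± 0.18 (adjusted p = 0.137) was called by limma only.

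**Figure D4:**
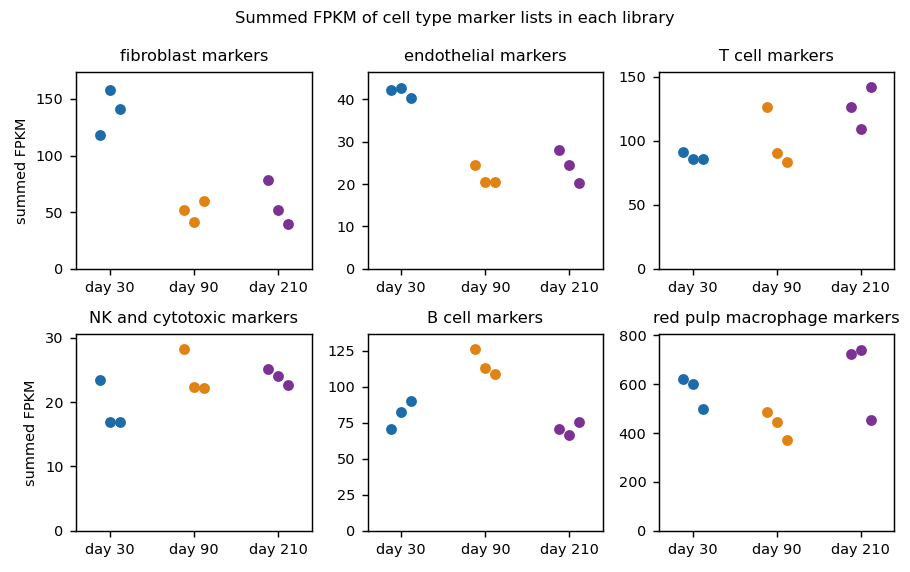
Summed FPKM of 6 lists of cell type markers in each library by age. Fibroblast and endothelial sums are higher in all 3 day 30 libraries (118 to 158 and 40.2 to 42.7 FPKM) than in any later library, and B cell sums are highest at day 90 (109 to 126 FPKM).

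IL12RB2, the chain that makes the IL12 receptor signal and marks T cells and NK cells ready to respond to IL12, had 2.89, 5.35 and 5.38 FPKM at day 210, against 1.75, 1.09 and 2.27 FPKM at day 30. All day 210 libraries lay above all others, replicate 1 by the least. The fitted level at day 210 was 2.82 times that at day 30, a log2 change of 1.49 ± 0.30 (adjusted p = 0.0244). Against day 90, with 1.64, 1.20 and 1.39 FPKM, the change was 1.55 ± 0.30 (adjusted p = 0.064, though DESeq2 and limma called it), and days 90 and 30 differed by -0.06 ± 0.29 (adjusted p = 0.928). The call against day 30 was lost without day 30 replicates 1 or 2 and without day 210 replicates 2 or 3 (adjusted p up to 0.0771), while the call over all 3 ages (adjusted p = 0.0182) was lost without day 210 replicate 2 only (0.0571).

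The IL12RB2 locus, on chromosome 6 from 24733700 to 24900782 on the plus strand, shares its span with other loci whose reads may be mixed with its own. It overlaps that of IL23R over 33428 bases, though IL23R held 320 reads over the 9 libraries and IL12RB2 held 37497. An unnamed locus on the other strand, which overlaps it over 47707 bases with 12010 reads, rose by 2.19 at day 210 against day 30 (adjusted p = 0.00594). A further unnamed locus on the same strand, with 8156 reads, rose by 1.91 (adjusted p = 0.0175).

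Lymphocyte markers stood as follows beside IL12RB2. T cell markers (9 of 9 matched) summed to 109 to 142 FPKM at day 210, against 85.3 to 91.3 FPKM at day 30. Of these, edgeR called 2 of 9 (6.24% of all loci), with 5 at an unadjusted p under 0.05 (23.7%). The called markers, both higher, were CD3E (log2 change 0.76, adjusted p = 0.0143) and CD3D (0.72, adjusted p = 0.0247). Their calls held in 8 and 5 of 9 fits with 1 library left out (adjusted p up to 0.0547 and 0.0944, both without day 30 replicate 2). DESeq2 called 4 of the 9 T cell markers (12% of all loci) and limma 1 (4.81%). NK and cytotoxic markers (6 of 7 matched) summed to 22.6 to 25.1 FPKM at day 210, against 16.9 to 23.4 FPKM at day 30. Of these, edgeR called 0 of 6 (6.24% of all loci), with 2 at an unadjusted p under 0.05 (23.7%). DESeq2 called 1 (12% of all loci) and limma 0 (4.81%). No marker of either list was at 0 in every library, and their part in the IL12RB2 level was not tested. IL12RB1, the partner chain shared by the receptors for IL12 and IL23, had 3.14, 4.19 and 4.30 FPKM at day 210, against 3.81, 2.61 and 2.79 FPKM at day 30, with a change of 0.39 ± 0.20 (adjusted p = 0.273). IL2RB, the signalling chain for IL2 and IL15 on cytotoxic cells, spanned 2.55 to 5.82 FPKM at day 210, against 1.97 to 3.99 FPKM at day 30, with a change of 0.59 ± 0.40 (adjusted p = 0.406).

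The other receptors were not called by edgeR in the fit of all 9 libraries. IL18R1, the ligand-binding chain for IL18, had 4.93, 3.15 and 3.69 FPKM at day 90, against 3.93, 2.13 and 2.83 FPKM at day 30, with a change of 0.59 ± 0.21 (adjusted p = 0.138). CSF2RB had 24.8, 22.2 and 20.1 FPKM at day 90, against 18.3, 18.8 and 18.6 FPKM at day 30, without overlap. The narrow spread of CSF2RB at day 30 did not extend to day 210, with 31, 26 and 17 FPKM, and the changes against day 30 were 0.47 ± 0.16 at day 90 (adjusted p = 0.126) and 0.44 ± 0.16 at day 210 (adjusted p = 0.143).

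IL17RB, the receptor for IL17B and IL25, had 3.07, 2.79 and 2.54 FPKM at day 210, against 2.12, 1.84 and 1.58 FPKM at day 90, without overlap. Its change of 0.45 ± 0.10 had an adjusted p of 0.098 and was called by DESeq2 only. IL2RG had 33, 25.9 and 34.8 FPKM at day 210, against 38.8, 36.6 and 36.3 FPKM at day 90, also without overlap, and its change was -0.41 ± 0.15 (adjusted p = 0.258). In the same comparison IL10RB, the second chain of the IL10 receptor, changed by -0.47 ± 0.15 (adjusted p = 0.195) and IL21R, the receptor for a follicular helper T cell cytokine, by -0.50 ± 0.19 (adjusted p = 0.279). An unnamed locus on the same strand overlaps IL10RB over 5232 bases. It held 122932 reads, against 5442 for IL10RB, so the level and change of IL10RB may include its reads. On the other strand a further unnamed locus overlaps IL17RB over 1295 bases. That locus held 22543 reads, against 26641 for IL17RB, and changed by 0.17 at day 210 against day 90 (adjusted p = 0.505). Reads of IL17RB and this locus cannot be told apart.

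Members whose ages did not overlap were also counted on the deposited FPKM, which are not rescaled between libraries. At day 90 against day 30 the FPKM of 1 member (CSF2RB) lay wholly higher and those of 10 members wholly lower, where 3.17% of all loci lay wholly higher and 25.2% wholly lower. At day 210 against day 90 the counts were 9 higher and 2 lower, where 13.3% and 2.77% of all loci were. At day 210 against day 30 they were 1 higher (IL12RB2) and 8 lower, where 8.47% and 16% of all loci were.

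Several lymphocyte receptors had levels that overlapped at all ages. IL7R, the survival receptor of T cells, averaged 7.34 ± 1.23, 6.66 ± 0.764 and 7.95 ± 1.65 FPKM at days 30, 90 and 210. IL2RA, the high-affinity IL2 receptor chain carried by regulatory and activated T cells, averaged 2.37 ± 0.444, 2.42 ± 0.363 and 2.26 ± 0.211 FPKM. IL27RA averaged 9.64 ± 1.5, 9.96 ± 0.999 and 9.24 ± 0.489 FPKM, and its highest library was 1.33 times its lowest (SD, n = 3 for each of these means). IL4R, IL6R, IL6ST, IL10RA, IL13RA1 and IL31RA had adjusted p of 0.329 or more in every comparison, though IL31RA at day 90 lay wholly below both other ages on FPKM, and IL6ST and IL1RAP at day 90 wholly below day 30. IL1RAP and IL1RL1, which together form the receptor for IL33, changed by -0.11 ± 0.20 (adjusted p = 0.789) and -0.31 ± 0.28 (adjusted p = 0.56) at day 90 against day 30.

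The tested inhibitor and the 4 signalling loci had adjusted p of 0.574 or more in every comparison. IL18BP, the secreted protein that neutralises IL18, had 3.07, 2.25 and 2.35 FPKM at day 90 and 2.93, 2.74 and 3.29 FPKM at day 210, against 2.88, 2.87 and 3.5 FPKM at day 30, and its adjusted p was 0.761 or more in each comparison. Its locus also carries the description of RNF121, so the value belongs to the merged locus. IRAK1 averaged 9.76 ± 1.71, 8.51 ± 1.63 and 9.35 ± 1.74 FPKM at days 30, 90 and 210 (SD, n = 3 each). IRAK3, a brake on the same pathway, and TIRAP, an adapter of Toll-like receptors, changed by 0.17 or less in size on the log2 scale in every comparison. IRAK1BP1, which binds IRAK1, was uneven, with 1.46, 1.56 and 0.387 FPKM at day 210 and 1.08, 0.649 and 1.02 FPKM at day 90, against 1.49, 1.43 and 1.48 FPKM at day 30. Its day 90 libraries lay wholly below day 30, with a change of -0.46 ± 0.43 (adjusted p = 0.574).

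Genes that serve the pathway without carrying an interleukin name were counted from a list of 47 JAK kinases, STAT factors, SOCS inhibitors, NF-kappaB parts and neighbouring cytokines, of which 44 were matched and 39 tested. At day 210 against day 30, edgeR called 1 of 39, beside 6.24% of all loci. This was NFKBIZ, a nuclear regulator induced by IL1 and IL17 signalling. NFKBIZ averaged 8.57 FPKM at day 210, against 5.67 FPKM at day 30, and rose by 0.63 ± 0.14 (adjusted p = 0.034). That call held in 1 of 9 fits that left out 1 library (adjusted p up to 0.101, without day 210 replicate 2). DESeq2 called 5 of the 39 (12% of all loci) and limma 0 (4.81%). At day 90 against day 30 edgeR called 0 (6.08% of all loci), with 3 at an unadjusted p under 0.05 (23.1%). DESeq2 called 2 (12.6%) and limma 3 (8.93%) in that comparison. At day 210 against day 90 edgeR called 0 (0.535% of all loci), with 8 at an unadjusted p under 0.05 (14.1%). There DESeq2 called 2 (4.17%) and limma 0 (0.633%). STAT4, the factor downstream of IL12, averaged 4.05 FPKM at day 210, against 2.76 FPKM at day 30, with a change of 0.61 ± 0.18 (adjusted p = 0.0769), and JAK3, the kinase bound to IL2RG, averaged 18.8, 17.8 and 18.2 FPKM at days 30, 90 and 210.

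The remaining 31 members lay below a mean of 1 FPKM and were not part of the tests. They comprised 14 ligands (IL1B, a second IL1B-like locus, IL5, IL9, IL12A, IL12B, IL17C, IL17D, IL21, IL22, IL25, IL26, IL31 and CXCL8), 14 receptor loci and 3 decoys or binding proteins. The receptor loci were IL1RL2, IL1RAPL1, 2 loci of IL1RAPL2, IL5RA, IL9R, IL17RD, IL17RE, IL18RAP, 2 loci of IL20RA, IL20RB, IL22RA1 and IL23R. The inflammatory cytokines IL1B and CXCL8 had 125 and 7 reads over all 9 libraries, and IL12B, the chain shared by IL12 and IL23, had 57. IL22, IL26, IL9 and IL22RA1 had 2 to 8 reads each.

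The sparse receptors with the most reads were IL18RAP, the signalling partner of IL18R1, and IL17RE, a receptor for IL17C. IL18RAP had 131, 183 and 149 reads at day 90, against 93, 32 and 82 reads at day 30, with 83, 86 and 101 reads at day 210. IL17RE had 268, 283 and 287 reads summed over each age in order. IL5RA, the eosinophil receptor for IL5, had 0, 0 and 4 reads at day 90, against 32, 20 and 21 reads at day 30, with 6, 3 and 25 reads at day 210. One locus of IL20RA (locus B) had 8, 0 and 4 reads at day 210, against 36, 55 and 48 reads at day 30, with 8, 10 and 30 at day 90. In a fit without the FPKM minimum none of these reached the threshold in edgeR, the lowest adjusted p being 0.0949 (IL20RA locus B, day 210 against day 30), and 3, 3 and 1 of the 31 loci had an unadjusted p under 0.05 at day 90 against day 30, day 210 against day 90 and day 210 against day 30. Of the 8831 loci of the table below the minimum, 11.4%, 7.73% and 12.4% did in the same order.

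The decoys were uneven between libraries. IL1R2, the decoy receptor that binds IL1 without signalling, had 31, 6 and 0 reads at day 90 and 85, 56 and 63 reads at day 210, against 80, 34 and 7 reads at day 30. IL13RA2, the decoy for IL13, had 47, 57 and 21 reads at day 90 and 165, 66 and 48 reads at day 210, against 82, 61 and 124 reads at day 30. For both, single libraries of an age spanned most of the range of all 9. IL22RA2, the soluble binding protein for IL22, had 122 reads in all.

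**Figure D5:**
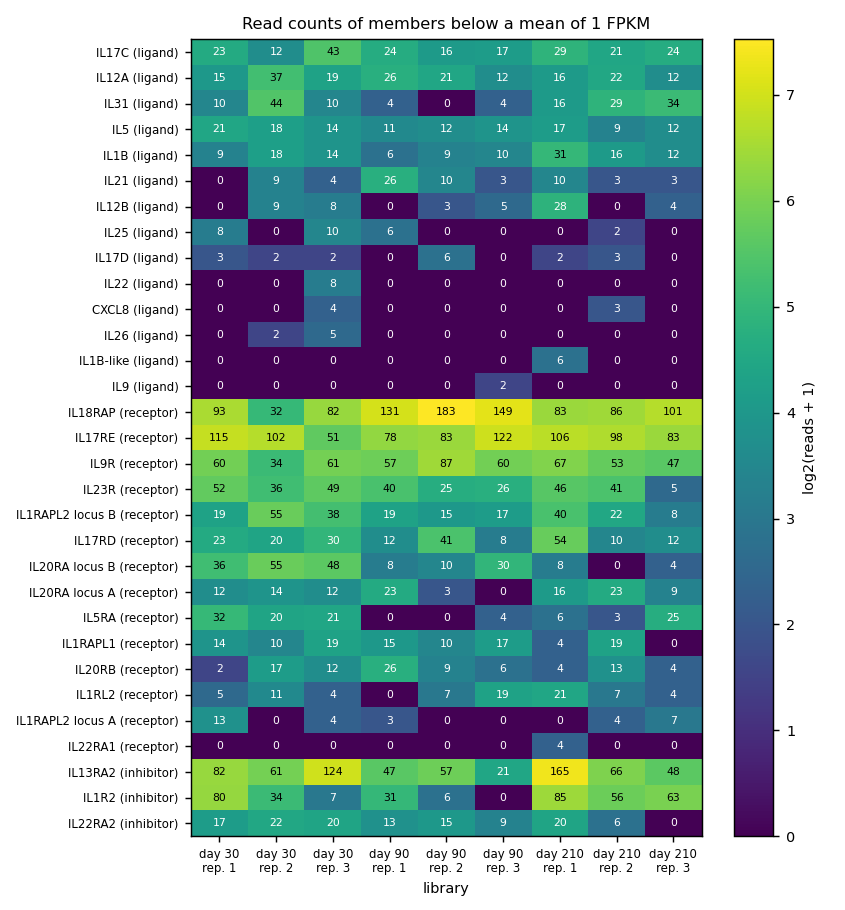
Read counts in each library of the 31 members below a mean of 1 FPKM, with the number of reads printed in each cell and the colour on the scale log2(reads + 1). IL18RAP, IL17RE and IL13RA2 are the best covered, and many ligand cells hold 0 reads.

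Members share positions in the genome as well as functions. In the deposited coordinates 6 receptor loci of the IL1 family lie within 609 kb of chromosome 3, from 74753389 to 75362577. Of these IL18R1, IL1RL1 and IL1R1 were tested, with log2 changes of 0.59, -0.31 and -0.89 at day 90 against day 30. IL1R1 alone of these 3 was called, and the neighbours IL18RAP, IL1RL2 and IL1R2 lay below the FPKM minimum. IL17RE and IL17RC lie within 29 kb of chromosome 13, where IL17RC was called lower at day 90 and IL17RE summed to 283 reads at day 90, against 268 reads at day 30. IL27, IL21R and IL4R lie within 690 kb of chromosome 3. Of the 42 tested members 17 are overlapped by another locus of the table, among them IL2RG, IL4R, IL6R and IL7R.

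Circular RNAs are made by back-splicing of exons, and those of the member loci were counted. The 73 members are themselves a small part of the 28095 loci in the gene table, and the shares were not compared by a test. The authors' table of 18908 circRNAs held 52 that were assigned to 16 member loci, all 16 of them tested, with 338 back-splice junction reads in all, where a library held 10962 to 15469 junction reads. The locus of IL27RA had the most, with 5 circRNAs and 115 junction reads, 29 at day 30, 45 at day 90 and 41 at day 210. A circRNA of 2 exons made up 89 of these reads and was seen in all 9 libraries. IL6ST followed with 12 circRNAs and 52 junction reads, while the 69 reads at the locus of IL18BP came from circRNAs whose host is the merged RNF121. Of the 52 circRNAs 43 had at most 5 junction reads, so they were given no test.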

How the data were processed

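Total RNA of spleen was sequenced as paired-end libraries, per the labels' protocols, which name selection of poly(A) RNA on beads, then either the poly(A)- or the poly(A)+ fraction, and adipose tissue. Per the submitters' processing notes HISAT2 2.0, StringTie 1.3.0 and Bowtie 0.12.2 were used; the build named is mm8, a mouse build, so the build of the pig coordinates is not certain. The authors deposited read counts and FPKM per locus, and junction read counts of circRNAs with a signal (SRPBM) that was not used here. The counting tool and strand are not given in the sources used here.

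Loci were found by their deposited protein description, and 39 of 47 panel symbols were matched (IL1RN, IL2, IL4, IL17A, IL15RA, IL3RA, IRAK2 and IRAK4 are not analysed here). The members and gene lists were chosen with earlier results of these data known. Counts of the 19264 loci at or above the FPKM minimum of 1 entered edgeR 4.0.16 (quasi-likelihood, TMM factors of 0.937 to 1.073, a mean per age, all 9 libraries, two-sided; R 4.3.3), Benjamini-Hochberg over all loci, threshold 0.05. Standard errors are the size of the change divided by the root of the F statistic. edgeR's common coefficient of variation was 27.3%. Alternatives were DESeq2 1.42.0, limma 3.58.1 on log2(FPKM + 1), DESeq2 size factors, no FPKM minimum, 2 ages only, a replicate block and leaving out each library. Named genes were the called members, the 10 highest means, up to 3 rises and 3 falls per comparison without overlap of ages, and the panel; the other members with values here were chosen after their values were seen. The fits were checked on simulated data. No replicate was a copy of another: the median chi-square per locus between replicates was 4.61 to 12.5.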

Additional observations from a re-analysis of the deposited data

How the results depend on the processing

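At day 90 against day 30, the 3 calls became 5 with DESeq2 and 5 with limma on log2(FPKM + 1), and 1 to 4 with 1 library left out. At day 210 against day 90, the 0 calls became 4 with DESeq2, 1 with limma and 0 to 1 with 1 library left out. At day 210 against day 30, the 1 call became 3 with DESeq2, 2 with limma, 0 when only these 2 ages were fitted, and 0 to 1 with 1 library left out. Over any age the 3 calls became 7 with DESeq2, 5 with limma and 2 to 5 with 1 library left out. The cause was not tested. DESeq2 size factors changed no count, and without the FPKM minimum the counts were 2, 0, 1 and 3 in this order.

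Among 32 changes of single members, 443 of 480 values under the alternatives kept their direction and side of the threshold, 19 missed it, 17 newly passed it, and 1 was reversed: IL12RB2 at day 90 against day 30 was 0.15 without day 30 replicate 3 (range -0.28 to 0.15 with 1 library left out). Most of the 480 values belong to changes that were not called, so the 443 do not measure how stable the calls were. Only the 3 calls at day 90 against day 30 and the 1 call at day 210 against day 30 could miss the threshold. With 1 library left out they held in 2 of 9 fits for IL33, 5 of 9 for IL17RC, 9 of 9 for IL1R1 and 5 of 9 for IL12RB2. Libraries with the same number at different ages had correlations of -0.069 to 0.099, and those with different numbers -0.122 to 0.122. No sign of pairing by number was seen, though with 3 libraries per age a weak one could be missed. With the number as a replicate block in edgeR the counts were 2, 0, 1 and 2, and IL33 had an adjusted p of 0.0521. With 3 libraries per age, and under 1 FPKM in 31 of 73 members, small changes and those of sparse ligands could be missed.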
